A study of Mus musculus with 6 samples.

Results

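Accessibility at 10 genes that carry dietary fat across the intestinal epithelium was followed in ATAC-seq peak lists from mouse intestinal crypts. They were Apoa1, Apoa4, Apoa5, Apoc3, Apob, Mttp, Fabp1, Fabp2, Dgat1 and Cd36. ATAC-seq uses a transposase that inserts adapters into open chromatin, and a peak is a stretch where tagged fragments exceed the background. A peak was assigned to a gene when its summit, the base of highest coverage, lay in the gene body or within 10 kb of it. Peaks of the 6 libraries that overlapped by at least 1 base were merged into 71286 consensus peaks, of which 40 belonged to the 10 genes. A peak in the windows of neighbouring Apoa genes was counted once.

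The libraries came from 3 wild-type (WT) and 3 Arid3a conditional knockout (cKO) mice. Every animal had tamoxifen on 3 consecutive days and was culled 1 month after the first injection. The cKO mice were VillinCre-ERT2+/-; Arid3a fl/fl, so that the gene was deleted in Villin+ epithelial cells while stromal cells kept it. The Cre and floxed status of the WT mice is not given in the sources used here. Crypts were dissociated to single cells before tagmentation. In such a bulk sample, fewer cells of a type and a weaker signal per cell cannot be told apart. The comparison asked how loss of Arid3a, which encodes a DNA-binding factor, changed accessibility at these loci.

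Enterocytes take up the products of fat digestion, rebuild triglyceride in the endoplasmic reticulum and export it as chylomicrons. Cd36 is a fatty acid transporter at the membrane, and Fabp1 and Fabp2 are cytosolic fatty acid carriers. Dgat1 makes the last ester bond of triglyceride, Mttp loads lipid onto apolipoprotein B, and Apob is the structural protein of the particle. Apoa1 and Apoa4 ride on chylomicrons, while Apoc3 and Apoa5 slow and speed the lipolysis of their triglyceride. Apoa1, Apoc3, Apoa4 and Apoa5 lie side by side on chromosome 9. This program is strongest in villus cells, while stem cells and dividing progenitors lie in the crypts. The paper also ran single-cell RNA-seq on epithelial cells sorted from isolated crypts. Enterocytes were the majority of those cells in both genotypes, with a larger share in cKO. The make-up of the ATAC-seq libraries was not measured.

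The 8 stretches shown here give the sequence at the peaks and starts that the results turn on. All are from GRCm38.p6 and run 5′ to 3′ on the strand of the named gene, and bases annotated as UTR were left out. The first is the Apoc3 promoter peak (chr9:46235679-46235879, minus strand), 100 bp either side of its summit. Its capitals mark the nuclear receptor half-site AGGTCA on either strand. The second is a peak in a coding exon of Apoa1 (chr9:46230047-46230247, plus strand), which had the most negative difference in rank, and its capitals mark CpG. The third is the stretch before the Apoa4 start (chr9:46240496-46240695, plus strand), with an HNF4 match in capitals.
Apoc3 promoter: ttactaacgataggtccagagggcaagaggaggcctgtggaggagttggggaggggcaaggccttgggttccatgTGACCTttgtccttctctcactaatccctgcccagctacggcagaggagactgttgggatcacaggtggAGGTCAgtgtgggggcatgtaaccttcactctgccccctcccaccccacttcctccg
Apoa1 exon: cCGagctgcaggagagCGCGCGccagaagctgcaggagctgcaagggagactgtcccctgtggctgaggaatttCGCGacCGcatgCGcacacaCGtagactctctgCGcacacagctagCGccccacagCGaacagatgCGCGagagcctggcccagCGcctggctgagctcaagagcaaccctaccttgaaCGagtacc
Apoa4 upstream: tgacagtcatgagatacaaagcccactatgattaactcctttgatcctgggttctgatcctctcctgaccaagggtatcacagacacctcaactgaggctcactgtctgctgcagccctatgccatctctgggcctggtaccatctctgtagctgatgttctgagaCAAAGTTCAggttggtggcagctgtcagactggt

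The next 3 belong to Fabp1 and Mttp. The stretch before the Fabp1 start (chr6:71199627-71199826, plus strand) carries a half-site in capitals. The promoter that Mttp shares with Trmt10a (chr3:138143708-138143774, minus strand) is shown with CpG in capitals, and it was the highest peak of the 10 genes. The 67 bp left without UTR hold 5 CpG and do not include the summit of any library. The third (chr3:138144917-138145117, minus strand) underlies the only peak called in every library of one genotype and none of the other, with overlapping ARID3 letters in capitals.
Fabp1 upstream: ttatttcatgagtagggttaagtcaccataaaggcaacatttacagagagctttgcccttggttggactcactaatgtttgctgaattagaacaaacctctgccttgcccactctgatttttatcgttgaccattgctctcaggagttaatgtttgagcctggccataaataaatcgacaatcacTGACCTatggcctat
Mttp and Trmt10a promoter: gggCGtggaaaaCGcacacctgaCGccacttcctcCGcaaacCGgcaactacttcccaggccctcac
Mttp cKO-only peak: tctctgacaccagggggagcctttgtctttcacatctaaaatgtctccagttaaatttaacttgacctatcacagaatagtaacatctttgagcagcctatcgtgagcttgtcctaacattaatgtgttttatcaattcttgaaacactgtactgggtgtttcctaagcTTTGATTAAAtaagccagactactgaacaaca

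An intron peak of Mttp (chr3:138121601-138121801, minus strand) has half-sites in capitals on both strands. The Cd36 intron peak (chr5:17829010-17829210, minus strand) is the only peak of that gene called in every library, and its capitals mark a CDX match.
Mttp intron: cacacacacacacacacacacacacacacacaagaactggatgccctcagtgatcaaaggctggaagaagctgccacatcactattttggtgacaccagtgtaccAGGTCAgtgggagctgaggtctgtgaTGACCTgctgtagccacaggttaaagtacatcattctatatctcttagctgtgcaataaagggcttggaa
Cd36 intron: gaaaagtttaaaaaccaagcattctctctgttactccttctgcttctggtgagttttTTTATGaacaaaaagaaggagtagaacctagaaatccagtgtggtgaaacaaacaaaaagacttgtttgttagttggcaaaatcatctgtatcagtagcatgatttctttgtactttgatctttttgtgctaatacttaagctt

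The letters of 6 motifs were sought on both strands within 100 bp of each summit, without a mismatch. An HNF4 match, sought only as CAAAGTCCA or CAAAGTTCA, lay in 0 of the 40 peaks, against 2.52% of all consensus peaks. The count of 0 allows a share of up to 7.5%. It does not cover other sequences that HNF4 may bind, which were not sought. Whether the half-sites marked in the Apoc3 promoter are part of a longer HNF4 site was not tested. The match before Apoa4 ends 26 bp upstream of the start and is outside the summit window. RefSeq promoter windows on GRCm38.p6, from 250 bases before to 50 after a start, were in the table used here for 8 of the 10 genes. Among these 8, the HNF4 forms sought were in the Apoa4 window alone, against 0.861% of the 32851 windows of this length.

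The half-site AGGTCA was in 7 peaks (17.5%, against 15.3% of all consensus peaks), among them the promoter peaks of Apoc3 and Fabp1 and the Mttp intron peak. The ARID3 forms sought were ATTAAA and, with the third base changed, ATCAAA. One or the other was in 10 peaks (25%, against 16.1% of all and 19% of all distal peaks). The GATA motif AGATAA was in 8 peaks (20%, against 12.8% of all). The CDX motif TTTATG was in 5 peaks (12.5%, against 11.3% of all). The AP-1 motif TGACTCA, or the form TGAGTCA that is its reverse complement, was in 2 peaks (5%, against 8.11% of all). Of the 10 peaks with ARID3 letters 4 were called in every library, against 4139 of 11496 such peaks among all consensus peaks. No 2 matches of different motifs shared bases, and 1 pair of ARID3 matches did, at the cKO-only Mttp peak. A match is a description of letters and not of binding.

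Most promoter peaks of these genes held few CpG, and 3 of the 7 were at Mttp. The median number of CpG within 100 bp of the summit was 4 over the 7 promoter peaks of the 10 genes, against 15 over all 16763 promoter peaks. Dgat1, with 23, and the Mttp and Trmt10a promoter, with 16, stood above the other 5, which had 1 to 4. The peak in the Apoa1 exon held 16 although it is no promoter.

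Each list gives a fold, the fragment pileup at the summit over the local background, both with 1 added. Because the scale of fold differs between libraries, a peak was ranked by fold among the 32748 peaks called in all 6 libraries, and the rank is given as a percentile. The lists held 40492 to 58297 peaks, and the background coverage implied by fold and p was 1.75 to 2.29 fragments per base. Read totals were not used here. The Arid3a promoter peak, which does not test the deletion, had a fold of 6.48, 7.41 and 6.55 in WT 1, 2 and 3, against 5.93, 6.53 and 5.54 in cKO 1, 2 and 3. Promoter peaks in all 6 libraries were found for 5 of 7 epithelial and 4 of 4 crypt markers. Such a peak was also found for 2 of 3 mesenchymal markers and 1 of 3 endothelial markers (Kdr). No promoter peak was called in any library for the leukocyte markers Ptprc, Cd3e, Cd79a and Lyz2, or for the 5 hepatocyte markers, Alb among them.

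Of the 40 peaks, 18 were called in all 6 libraries (45%, 95% Wilson interval 30.7 to 60.2, counting error only), against 45.9% of all consensus peaks. Another 12 were called in 1 library (30%, against 20.9% of all), and 10 of these were in WT 3 or cKO 1. The same 2 libraries, which had the longest lists, held 51.3% of all single-library peaks. The 22 peaks missing from at least 1 library were low, with a fold of 2.29 to 5.17. The number of peaks over the loci was 18, 23 and 31 in WT 1, 2 and 3, against 35, 27 and 24 in cKO 1, 2 and 3. The mean was 24 ± 6.56 (SD, n = 3) in WT and 28.7 ± 5.69 in cKO, a difference of 4.67 within the spread of the libraries, and the ranges overlapped.

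**Figure D1:**
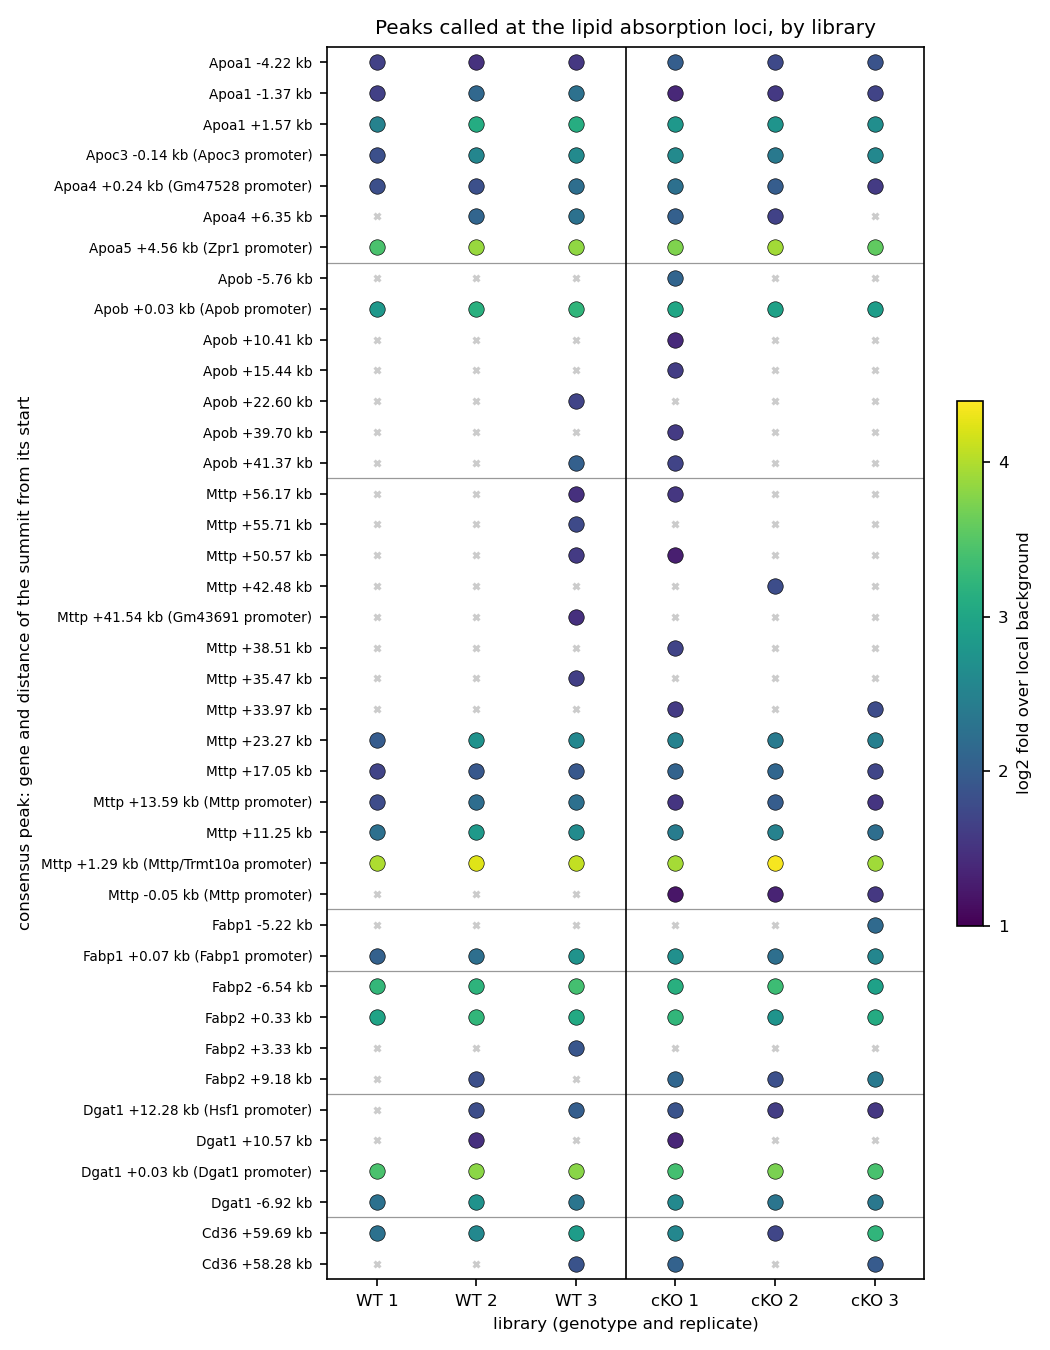
Each row is one of the 40 consensus peaks, named by the nearest of the 10 genes and the distance of the summit from its outermost start, and each column is a library. Circles are called peaks coloured by log2 fold and crosses are libraries without a call; 18 rows are filled in all 6 libraries, and the Mttp row at -0.05 kb is filled only in the 3 cKO libraries.

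The 10 genes divided by whether an annotated start lay under a peak. For 6 of them, Apoc3, Apob, Mttp, Fabp1, Fabp2 and Dgat1, at least 1 start was covered in all 6 libraries. The Apoa4 start was covered in WT 2, WT 3 and cKO 1 only. For Apoa1, Apoa5 and Cd36, no annotated start was under a peak in any library. The 40 peaks fell into 7 promoter peaks of the 10 genes, 4 promoter peaks of neighbouring genes and 29 distal peaks. A promoter peak had its summit from 1000 bp upstream to 100 bp downstream of an annotated start. All but 1 of the 7 were in all 6 libraries, against 79% of all promoter peaks. Among the distal peaks 10 were (34.5%), against 35.8% of all distal peaks.

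The fatty acid transporter gene Cd36 had no peak over any of its 6 annotated starts and no promoter peak. Its highest peak lay in an intron, with a summit at chr5:17829110. That is 59.7 kb from the outermost annotated start and 6586 bp from the nearest one. Its fold was 4.83, 6.02 and 7.30 in WT 1, 2 and 3, against 5.93, 3.27 and 9.34 in cKO 1, 2 and 3. The lowest and the highest value were both cKO, so that the WT range lay inside the cKO range. Its percentile differed by 0.73 ± 15.1 (SE), the widest error among the 18 shared peaks. It was -19.4 without cKO 3 and 15.2 without cKO 2. A second intron peak at chr5:17830522 was called in WT 3, cKO 1 and cKO 3, with a fold of 3.65 to 4.16. The local background at the first peak was 1.05 times the genome-wide coverage, and the printed stretch around the cKO 3 summit was 66.7% A+T. The summit lay outside that stretch in WT 1 (chr5:17829225), WT 2 (chr5:17829223), WT 3 (chr5:17828987) and cKO 1 (chr5:17829296).

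Fabp1, which encodes the liver-type fatty acid carrier, had 1 promoter peak with its summit at chr6:71199892, 65 bp into the gene in the UTR. Its fold was 4.13, 4.67 and 6.69 in WT, against 6.49, 4.69 and 5.90 in cKO. The genotypes overlapped, and WT 1, WT 2 and cKO 2 were the low libraries. The difference was 4.53 ± 7.16 percentile points. A peak 5.22 kb upstream was called in cKO 3 alone, with a fold of 4.48.

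Fabp2, the intestinal fatty acid carrier, had a pair of shared peaks. One lay 6.54 kb upstream, in an intron of 4933405D12Rik at chr3:122888529, with a fold of 9.50, 9.18 and 10.4 in WT, against 8.81, 10.1 and 7.61 in cKO. It was the highest distal peak of the 10 genes, at a mean percentile of 64.7, and its difference of -9.09 ± 8.83 was about the size of its error. It was -3.03 without WT 1 and -15.2 without cKO 2. The other covered the Fabp2 start in all 6 libraries with its summit at chr3:122895405, 333 bp into the gene, and so counted as distal. There the fold was 7.86, 9.40 and 8.30 in WT, against 9.47, 6.799 and 8.43 in cKO, and the genotypes overlapped. A further peak 9.18 kb downstream of the start was called in WT 2 and in all 3 cKO libraries, with a fold of 3.52 to 5.17.

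Dgat1, the triglyceride-forming acyltransferase, had a promoter peak of 2129 bp with its summit at chr15:76511927, 26 bp into the gene. Its fold was 10.7, 13.96 and 13.9 in WT, against 10.5, 13.1 and 10.6 in cKO. By fold WT 1, cKO 1 and cKO 3 were low and the other 3 high. As percentiles the values were 88.8, 87.2 and 87.5 in WT, against 71.7, 88.8 and 83.1 in cKO. On that scale cKO 1 and cKO 3 were low and WT 1 was not. The percentile was 87.8 on average in WT and 81.2 in cKO, a difference of -6.65 ± 4.38. It was -1.89 without cKO 1 and -10.1 without cKO 2. The distal peak nearest to it was in a coding exon of Scrt1, 6.92 kb upstream at chr15:76518873, with a fold of 4.84, 6.604 and 5.005 in WT, against 6.05, 5.0 and 5.12 in cKO. The Hsf1 promoter peak, 12.3 kb downstream of the Dgat1 start, was called in 5 libraries with a fold of 2.94 to 3.9995.

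Mttp, the lipid transfer protein gene, had 14 peaks, the most of the 10 genes, of which 5 were in all 6 libraries. Distances at Mttp are from its outermost annotated start, that of a retained-intron transcript. The highest was the CpG-rich promoter shared with Trmt10a, with its summit at chr3:138143674. Its fold was 15.7, 18.9 and 16.95 in WT, against 15.3, 20.5 and 15.1 in cKO. The mean percentile of 98.5 was the highest among the 18 shared peaks, the genotypes overlapped, and the difference was 0.095 ± 1.76. The protein-coding start at chr3:138143388 lay under this peak in all 6 libraries.

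A second Mttp peak, with its summit at chr3:138145017 in an intron of Trmt10a, was called in cKO 1, 2 and 3 and in 0 of 3 WT libraries. In cKO 2 its summit was at chr3:138144822, outside the printed stretch with the ARID3 letters. The peak covers that outermost start. Its fold was only 2.29, 2.495 and 2.92, which placed it at percentiles 1.16, 0.671 and 4.38 of the whole cKO lists. It was the 1 peak of 40 called in every cKO and no WT library, a pattern that held for 0.464% of all consensus peaks. The reverse pattern was found for 0 of 40, a count that allows a share of up to 7.5%, against 0.111% of all consensus peaks. With only peaks of −log10 q of at least 5, or with lists of equal length, the count of 1 became 0. Its summit pileup of 64, 27 and 59 fragments stood on a local background of 12.0, 5.84 and 8.97 times the genome-wide coverage, beside the high promoter. The −log10 q was 6.73, 2.99 and 10.2, and a WT pileup at this position was not measured, because a list holds only called peaks.

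The remaining shared peaks of Mttp lay in its introns. An internal protein-coding start was under the peak at chr3:138131382, whose fold was 3.41, 4.61 and 4.74 in WT, against 2.89, 3.98 and 2.88 in cKO. The libraries overlapped, with cKO 1 and cKO 3 lowest, and the difference was -5.11 ± 2.78. The highest of the intron peaks, at chr3:138133714, had a fold of 4.74, 7.08 and 6.18 in WT, against 5.34, 5.69 and 4.65 in cKO, a difference of -10.5 ± 7.22. In cKO 2 its value came from another summit, at chr3:138134707. The peak at chr3:138127917 differed the other way, by 3.82 ± 2.63, with a fold of 3.21, 3.78 and 3.79 in WT, against 4.21, 4.30 and 3.27 in cKO. The peak with half-sites, at chr3:138121701, had a fold of 3.92 to 6.57 in WT, against 5.22 to 5.66 in cKO, so that the cKO range lay inside the WT range. In cKO 2 and cKO 3 the summit was elsewhere, at chr3:138122071 and chr3:138122010, outside the printed stretch and its half-sites. The other 8 peaks of the Mttp window, from 34 to 56.2 kb downstream of the start, were each called in 1 or 2 libraries.

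Apob, the structural apolipoprotein, had 1 shared peak, at its promoter, with the summit at chr12:7977676, 28 bp into the gene in the UTR. Its fold was 7.05, 8.90 and 9.38 in WT, against 8.10, 7.72 and 7.36 in cKO. On the fold scale the genotypes overlapped, since WT 1 was lowest. As percentiles they did not, with 62.8, 56.0 and 59.1 in WT, against 47.1, 54.0 and 49.0 in cKO, and the difference was -9.21 ± 8.55. In cKO 1 the summit lay further into the gene, at chr12:7978517. The other 6 peaks of the Apob window were called in 1 or 2 libraries, each time in WT 3, in cKO 1 or in both.

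The chromosome 9 cluster held 7 peaks, 6 of them in all 6 libraries. Apoc3, whose product slows triglyceride lipolysis, was the only one of the 4 genes with a promoter peak. The summit was at chr9:46235779, 143 bp upstream of the start, and the fold was 3.57, 5.92 and 6.11 in WT, against 6.10, 5.19 and 6.02 in cKO. WT 1 stood below the other 5 libraries, which overlapped. The difference of 7.03 ± 6.72 percentile points was the largest upward one among the 18 shared peaks, and without WT 1 it was 0.53. On quantile-normalised log2 fold the difference was 0.18, and the highest of the 18 was 0.34. The value came from a summit inside the gene, outside the printed stretch, in WT 1 (chr9:46235401), WT 3 (chr9:46235587) and cKO 2 (chr9:46235476).

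Apoa1, the main protein of high-density lipoprotein, had its highest peak inside a coding exon, at chr9:46230147 and 1.57 kb into a gene of 1887 bp. Its fold was 5.64, 8.52 and 8.69 in WT, against 7.002, 6.79 and 6.33 in cKO, and overlapped through WT 1. As percentiles the libraries did not overlap, with 45.0, 52.6 and 52.8 in WT, against 34.6, 43.7 and 35.2 in cKO. The difference of -12.3 ± 9.39 was the largest downward one among the 18 in percentile points. On quantile-normalised log2 fold it was -0.21, and the lowest of the 18 was -0.37, so the order depends on the scale. Upstream of Apoa1, the intergenic peak at chr9:46227206 had a fold of 3.12, 4.39 and 4.79 in WT, against 2.61, 2.96 and 3.22 in cKO, a difference of -5.45 ± 2.70, and the genotypes overlapped through WT 1. The peak at chr9:46224357, 4.22 kb upstream, had a fold of 3.16, 2.81 and 2.93 in WT, against 4.01, 3.37 and 3.64 in cKO. Every cKO fold there was above every WT fold, but the percentiles overlapped, at 0.508 to 2.92 in WT, against 2.47 to 6.95 in cKO, a difference of 3.74 ± 2.23. The cKO 3 value came from another summit, at chr9:46224800.

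At Apoa4 the shared peak had its summit at chr9:46240938, 242 bp into the gene, and counted as the promoter of the neighbouring Gm47528. Its fold was 3.51, 3.55 and 4.66 in WT, against 4.72, 3.97 and 3.02 in cKO, and the cKO 2 value came from a summit at chr9:46242061. The genotypes overlapped, and the difference was 0.69 ± 3.25. A peak 6.35 kb downstream of the start, at chr9:46247047, was called in WT 2, WT 3, cKO 1 and cKO 2. Apoa5 had no peak of its own. The single peak in its window was the promoter of the adjacent Zpr1 at chr9:46273193, with a fold of 10.7, 14.7 and 14.2 in WT, against 13.4, 15.2 and 11.8 in cKO. Its percentiles were 88.9 to 90.05 in WT, against 90.8 to 95.4 in cKO and did not overlap, although the folds did. The nearest peak left out by the window was 10.7 kb from Apoa5 and called in cKO 1 alone, and the next, 11.0 kb away, had a fold of 12.7 to 16.5 in all 6 libraries.

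**Figure D2:**
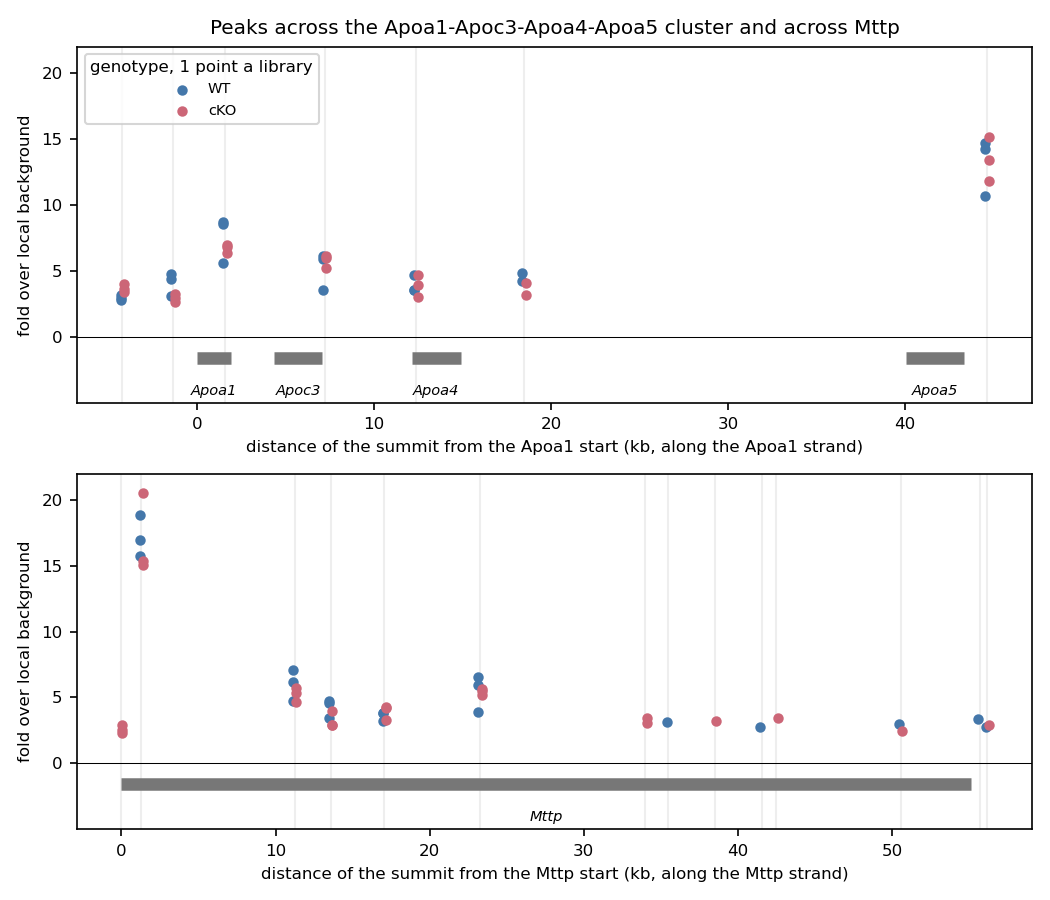
Fold over local background of every called peak against the distance of its summit from the Apoa1 start (upper panel) and from the outermost Mttp start (lower panel), with 1 point per library and grey bars for the genes. In the cluster only the Zpr1 promoter beside Apoa5 exceeded a fold of 10; at Mttp the Trmt10a and Mttp promoter reached 15.1 to 20.5, and all peaks beyond 30 kb were called in 1 or 2 libraries.

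**Figure D3:**
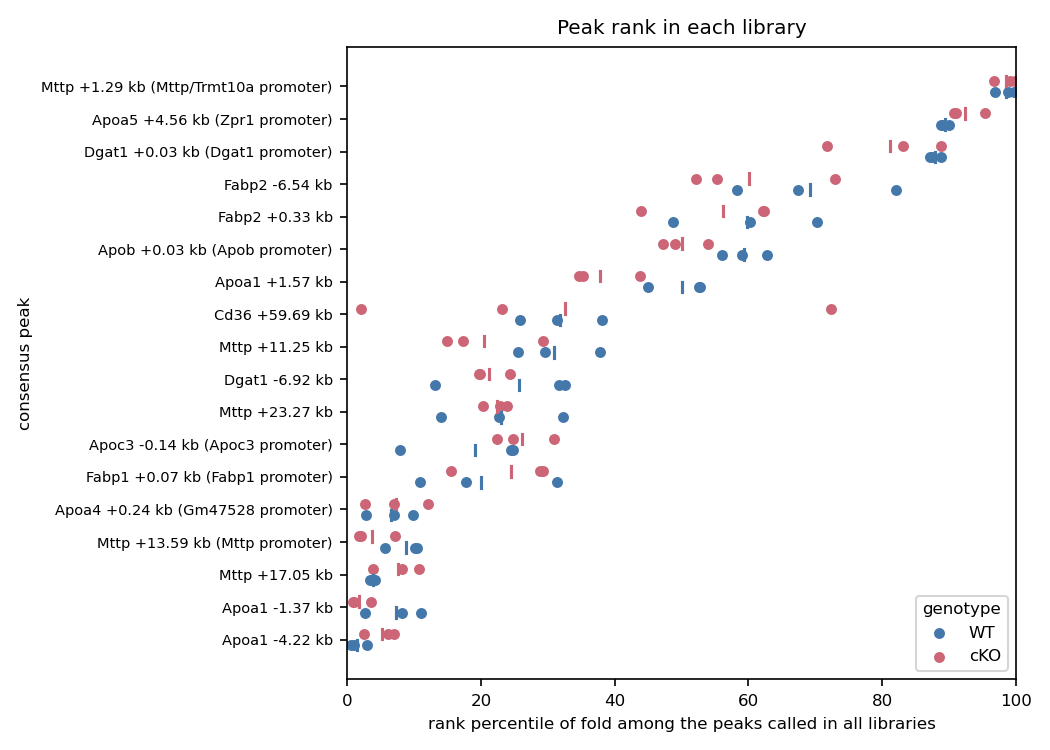
Rank percentile of fold, among the 32748 peaks called in all 6 libraries, for each of the 18 shared peaks; points are libraries and vertical bars the mean of 3. The WT and cKO points overlap in all rows except the Apoa1 exon, Apob promoter and Zpr1 promoter rows.

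Across the 18 shared peaks, 8 were higher and 10 lower in cKO, with a median of -2.10 percentile points. Over all 32748 the median was -0.64, and 53.9% were lower. By limma with Benjamini-Hochberg adjustment over all shared peaks, 0 of 32748 passed 0.05 (0% in either direction), and 2151 (6.57%) had an unadjusted p under 0.05. Of the 18, 0 had an unadjusted p under 0.05, a count that allows a share of up to 16.7%. That count was 3 of 18 without cKO 2, against 6055 of 33930 over all shared peaks. Without WT 1 it was 2 of 19, against 1701 of 37193. On quantile-normalised log2 fold it was 2 of 18, against 2412 of 32748. With calls in at least 2 of 3 libraries of each genotype it was 2 of 20, against 2757 of 42814. The lowest limma p was 0.0699, at the intergenic peak 1.37 kb upstream of Apoa1, and the lowest adjusted p was 0.715. The libraries did not overlap and were lower in cKO for 2 of 18, the Apoa1 exon and Apob promoter peaks, against 6.08% of all shared peaks. They did not overlap and were higher in cKO for 1 of 18, the Zpr1 promoter, against 5.86%. For a single peak the exact permutation test of 3 against 3 cannot go below p = 0.1.

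The 6 shared promoter peaks of the 10 genes had a median difference of -2.51, with a range of -9.21 to 7.03, and 3 were higher and 3 lower. Over all 13242 shared promoter peaks the median was -2.34, and 64.8% were lower. The 10 shared distal peaks had a median difference of -4.04, with a range of -12.3 to 3.82, 3 higher and 7 lower. Over all 19506 shared distal peaks the median was 0.70, and 46.4% were lower. By fold the promoter peaks had a median percentile of 38.6, against 70.5 over all shared promoter peaks, and the distal peaks 24.6 against 38.4. By summit pileup the promoter peaks had a median percentile of 57.4 against 74.7, and the distal peaks 39.999 against 35.2, so that the order of the distal medians turned. With each peak cut to 250 bp either side of its summit the Apob promoter was no longer shared, and the median of the other 5 was 0.10, as it was for these 5 uncut (0.095). Ranking by −log10 q moved the promoter median to 1.17. Without cKO 1 it was -0.44, and the distal median was -1.17 without cKO 2.

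**Figure D4:**
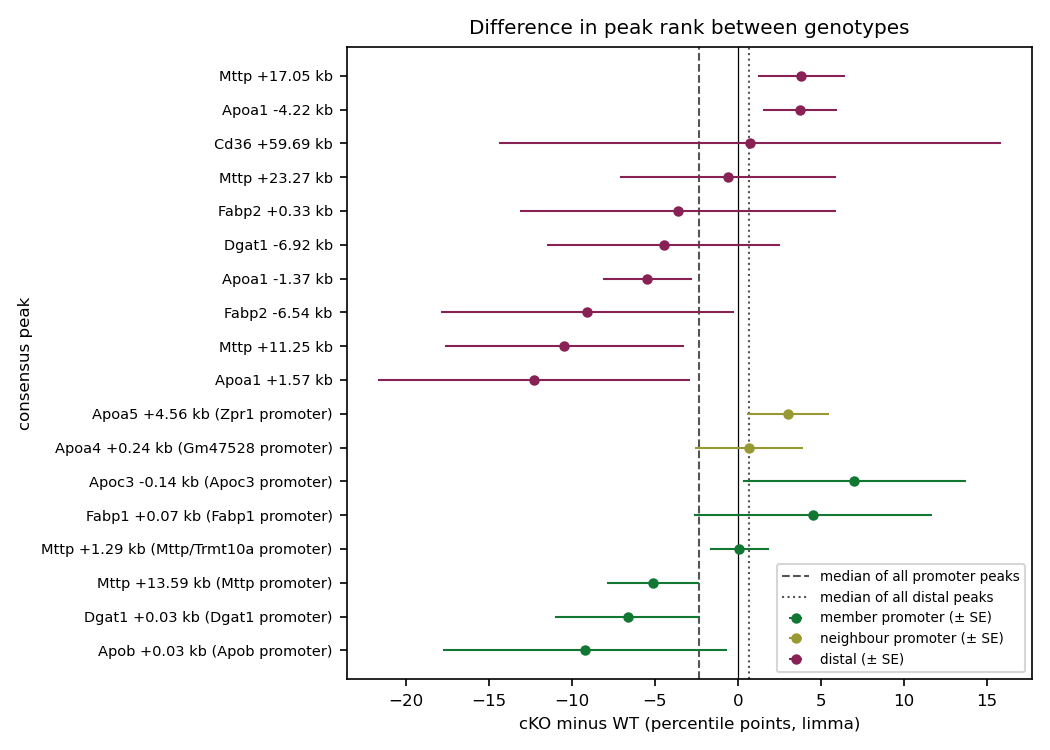
Difference in rank percentile, cKO minus WT, with the limma standard error, for the 18 shared peaks grouped as promoters of the 10 genes, promoters of neighbours and distal peaks. Dashed and dotted lines mark the medians of all shared promoter (-2.34) and distal (0.70) peaks; the points run from -12.3 to 7.03.

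Fold is relative to the local background, which was itself high around several of these peaks. Fold and p together give the pileup and the local background of each peak. The mean local background over the 18 peaks had a median of 4.76 times the genome-wide coverage, against 3.32 over all shared peaks. It was highest at the Dgat1 promoter, at 9.996 times, and at the internal Mttp start, at 7.90 times. The internal Mttp start had a mean percentile of 6.19 by fold and 50.6 by pileup. The peak upstream of Apoa1 at 1.37 kb moved in the same way, from 4.55 to 43.9. Cd36 moved the other way, from 32.1 by fold to 5.22 by pileup.

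**Figure D5:**
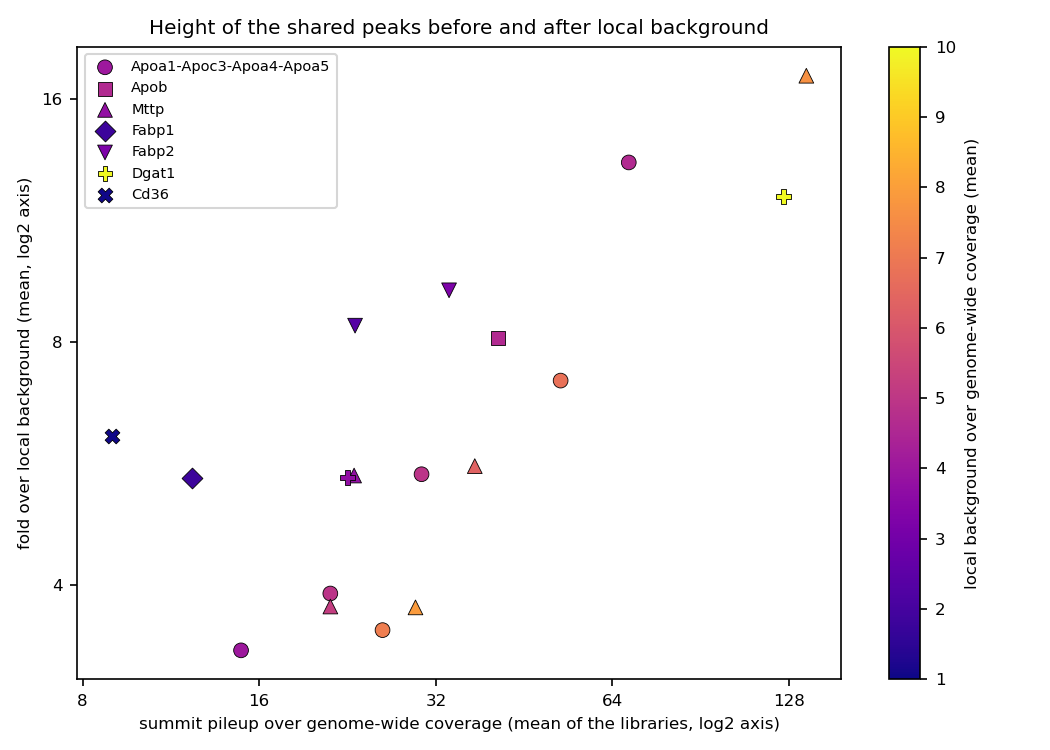
Mean fold over local background against mean summit pileup over genome-wide coverage for the 18 shared peaks, both axes log2, with shape for the locus and colour for the local background. The Mttp intron peaks and the peaks upstream of Apoa1 have a fold under 6 at a pileup of 14.9 to 37.3 times coverage, and the Cd36 peak has the lowest pileup, 8.98 times coverage.

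On the pileup scale the libraries differed as a whole. The log2 summit pileup over coverage was 0.28 higher in cKO at the median of all shared peaks, with the WT 1 library lowest. The shared promoter peaks of the 10 genes had a median of 0.40 on this scale, and the shared distal peaks 0.27. The Apoa1 exon peak was 0.26 ± 0.46 (SE) higher in cKO, which is -0.02 relative to the shift of all peaks. The Apob promoter peak was 0.44 ± 0.46 higher, or 0.16 relative to that shift. The peak at chr3:138127917 in Mttp had the largest difference, 0.77 ± 0.44, with a limma p of 0.0759 and an adjusted p of 0.922.

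The wider pathway was followed by the promoter peaks of 26 other genes of lipid absorption, from sterol transport (Npc1l1, Abcg5, Abcg8) to chylomicron assembly (Sar1b, Surf4, Tm6sf2). A promoter peak was in all 6 libraries for 24 of them, with 1 peak serving both Abcg5 and Abcg8. Their median difference was -5.56 percentile points, with 5 higher and 19 lower in cKO. Of all shared promoter peaks 64.8% were lower, with a median of -2.34. By limma 0 of 24 passed an adjusted p of 0.05, and 0 had an unadjusted p under 0.05. The most negative differences were -19.8 ± 10.8 at P4hb, which encodes a subunit of the lipid transfer complex, and -18.2 ± 8.80 at Ppara, a fatty acid sensor. Scarb1, a lipoprotein receptor, was 5.66 ± 3.86 higher. Acsl5 was called in 2 cKO libraries and Apoe in 1 cKO library, and in 0 of 3 WT libraries each. Both peaks were low, at mean percentiles of 2.98 and 1.62 of the whole lists. Of all consensus peaks 20.9% were called in 1 library, and the share called in 2 cKO libraries alone was not counted.

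Markers of the epithelium and of other cells gave the following values beside these results. All 5 epithelial promoter peaks shared by the libraries were lower in cKO, with a median of -13.3 points, from mean percentiles of 4.41 to 71.7 in WT, against 2.72 to 58.4 in cKO. Cdx1 had no promoter peak, and Krt20 had one in 1 WT library. The 4 crypt markers were lower with a median of -2.49, close to the median of -2.34 over all shared promoter peaks, of which 64.8% were lower. The Kdr promoter, of the endothelium, was 25.2 ± 11.5 points higher, with overlapping libraries, and Pecam1 and Cdh5 had no promoter peak. Of the mesenchymal markers, Col1a1 differed by 7.06 ± 9.52 points and Pdgfra by -8.72 ± 8.85. By limma 0 of these marker peaks had an unadjusted p under 0.05, and their part in the differences at the 10 genes was not tested.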

How the data were processed

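ATAC-seq libraries were prepared by the authors from crypts of 3 WT and 3 cKO mice and processed with the nf-core/atacseq pipeline. Reads were aligned to GRCm38 and narrow peaks were called per library with MACS2, per the labels and the study's methods. The authors pooled no replicates for these lists, and the methods name no input control, so the background came from each library. Each deposited list gives the fold enrichment (a ratio) at the summit, the −log10 p-value and −log10 q-value, and a score deposited by the authors that was not used here. The labels do not say how the mice of a group were related, so p-values measure the spread between these libraries.

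Only chromosomes 1 to 19, X and Y were used. The 15 pairs of lists included 0 identical ones. Genes came from GENCODE M21 and sequence from GRCm38.p6, and coordinates are 1-based. Fold was ranked among peaks called in all 6 lists and compared with limma 3.58.1 (trend, genotype only) in R 4.3.3, with Benjamini-Hochberg adjustment over all shared peaks. Whole pileups were recovered from fold and p within 0.01 of −log10 p for 99.9983% to 100% of peaks per list. Scripts ran under Python 3.11.15 and were tested on simulated data. The simulated rank shifts were larger than any at the 10 genes, so that test does not show whether smaller ones would be found. The text names the promoter peak of each gene and the distal peak called in most libraries at each locus. It also names the 3 largest differences in rank percentile each way and peaks called in 1 genotype only. One marker of the lists is not reported here. Other peaks of the 10 genes were named after their values were seen. The genes, lists and rules were chosen with earlier results of these data known. Alternatives were a stricter q, lists of equal length, narrower peaks, a 5 kb window, another promoter definition, other ranks and scales, a replicate block and leaving out each library.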

Additional observations from a re-analysis of the deposited data

How the results depend on the processing

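The count of 0 shared peaks and 0 peaks of the 10 genes past the limma threshold held under every alternative run, and the adjusted p of the 11 shared peaks named by rule was 0.248 to 0.999 across them. Whether same-numbered libraries were paired is not given in the labels. Their correlations of deviations were -0.295, -0.013 and 0.14, against -0.355 to 0.325 for libraries of different numbers. With 3 libraries per genotype these values cannot decide it. With the replicate block the counts stayed at 0 and 0 and the medians at -2.51 and -4.04, and 1878 peaks had an unadjusted p under 0.05. This number was 328 on the pileup scale and 1128 (without cKO 3) to 6055 (without cKO 2) without one library. The median over promoter peaks was 0.10 with peaks cut to 250 bp either side of the summit, where Apob dropped out and 5 peaks remained (0.095 for these 5 uncut). It was 1.17 when ranked by −log10 q, and -4.12 to -0.44 without one library, the latter without cKO 1. The median over distal peaks was -6.38 (without WT 3) to -1.17 (without cKO 2). The excess of 4.67 peaks per cKO library was 1.33 with lists of equal length and 1.5 to 8.17 without one library, lowest without cKO 1. The count of 1 peak called only in cKO was 0 with −log10 q of at least 5 and 0 with lists of equal length. Without one library it was 1 to 2, with 2 without WT 2 or without cKO 2. Of 160 values for the 11 named peaks, 140 kept their direction and 20 reversed. On the pileup scale these were Fabp2 upstream (0.25), the Mttp intron peak 11.3 kb from the start (0.41), the Apoa1 exon (0.26), Apob (0.44), Dgat1 (0.32), Scrt1 (0.15) and Cd36 (-0.017), beside a shift of 0.28 over all peaks. Relative to that shift 4 of these 7 were reversed, and Fabp2 upstream (-0.030), the Apoa1 exon (-0.022) and Scrt1 (-0.13) kept their direction. Ranked by −log10 q they were Apob (1.93), Dgat1 (0.31) and Cd36 (-0.56). Cd36 was also -5.82 ranked within the whole list, -0.14 on quantile-normalised log2 fold, -3.76 with at least 2 of 3 libraries of each genotype and -19.4 (without cKO 3) to 15.2 (without cKO 2) without one library. Without one library the Mttp and Trmt10a promoter ranged from -0.73 to 1.02 and Fabp1 from -0.12 (without WT 2) to 10.2 (without WT 3). Apoc3 ranged from 0.53 (without WT 1) to 9.92, Fabp2 upstream from -15.2 (without cKO 2) to -3.03 (without WT 1), Dgat1 from -10.1 (without cKO 2) to -1.89 (without cKO 1) and Scrt1 from -10.9 (without WT 3) to -1.23 (without WT 2). Of the 10 genes' shared peaks, 0 to 3 had an unadjusted p under 0.05 across the alternatives. The highest count was 3 of 18 without cKO 2, against 6055 of 33930 over all shared peaks. The cause of the other changes was not tested. A list holds only called peaks, so a signal below the caller's threshold was not detectable.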
